A study of Mus musculus with 7 samples.

Results

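A set of 9 genes of the calmodulin and CaMKII system was followed in hippocampal synaptoneurosomes: the kinase subunits Camk2a, Camk2b, Camk2d and Camk2g, the CaMKII inhibitors Camk2n1 and Camk2n2, the calmodulin genes Calm2 and Calm3, and Nrgn, which encodes neurogranin. They were chosen by symbol, and all 9 were found among the 22248 genes of the deposited gene table. Their transcripts account for 79 entries of the transcript table. Synaptoneurosomes are pinched-off nerve endings that keep part of the postsynaptic side, prepared from homogenised brain tissue.

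Messenger RNA was sequenced from wild-type female C57Bl/6J mice in 2 groups. The AM6545 group had 4 libraries (replicates B, D, E and F) and the Vehicle group 3 (replicates B, D and E), and the groups differed in the sub-chronic administration of AM6545 or vehicle. AM6545 is an antagonist of the CB1 cannabinoid receptor that enters the brain poorly. Age, dose, duration, the vehicle's composition and the number of mice behind a library are not given in the sources used here. Nor is it said whether libraries came from separate mice, so the p-values measure the spread between these libraries, which may in part be technical.

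Calcium entering a dendritic spine binds calmodulin, and calcium-loaded calmodulin switches on CaMKII, a multi-subunit kinase that can keep itself active by phosphorylating its own subunits. CaMKII is among the most abundant proteins of excitatory synapses and is required for long-term potentiation in the hippocampus, and Camk2a mRNA is a classic example of an mRNA carried into dendrites. The inhibitor proteins encoded by Camk2n1 and Camk2n2 bind the active kinase. Neurogranin binds calmodulin when calcium is low and so sets how much calmodulin is free.

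The inhibitor pair is shown by coding sequence because its 2 genes gave the largest differences between the groups, and the sequences show how far reads of the 2 mRNAs can be told apart. They are GENCODE M21 transcripts on GRCm38, without the stop codon. Capitals mark the bases that differ between the 2 genes in a global alignment or have no partner in it.
Camk2n1: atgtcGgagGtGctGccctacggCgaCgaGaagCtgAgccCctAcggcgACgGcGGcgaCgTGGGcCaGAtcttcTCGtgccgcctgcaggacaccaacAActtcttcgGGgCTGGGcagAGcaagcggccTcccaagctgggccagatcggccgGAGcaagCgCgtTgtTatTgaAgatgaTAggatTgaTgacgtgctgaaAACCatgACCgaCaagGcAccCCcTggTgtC
Camk2n2: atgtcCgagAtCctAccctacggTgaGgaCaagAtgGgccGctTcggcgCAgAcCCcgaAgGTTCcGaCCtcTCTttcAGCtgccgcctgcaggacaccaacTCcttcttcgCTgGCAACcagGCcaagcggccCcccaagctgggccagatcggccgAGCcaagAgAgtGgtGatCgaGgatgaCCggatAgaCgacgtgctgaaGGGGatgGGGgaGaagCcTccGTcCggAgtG
The coding sequences are 234 and 237 bases long, and 71.4% of their aligned bases are identical. The longest run shared by the 2 full transcripts is 23 bases. Camk2n1 lies on chromosome 4 (138454314 to 138460123, plus strand) and Camk2n2 on chromosome 16 (20619215 to 20621287, minus strand), each with 2 exons and 1 annotated transcript.

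Calm2 (chromosome 17, 87433412 to 87446935, minus strand) and Calm3 (chromosome 7, 16915379 to 16924114, minus strand) are known to encode the same calmodulin protein from different DNA. The first 150 of their 447 coding bases are shown for that reason, with capitals again at the bases that differ.
Calm2: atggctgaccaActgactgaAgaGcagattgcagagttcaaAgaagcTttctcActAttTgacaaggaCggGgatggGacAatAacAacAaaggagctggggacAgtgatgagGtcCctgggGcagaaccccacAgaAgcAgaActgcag
Calm3: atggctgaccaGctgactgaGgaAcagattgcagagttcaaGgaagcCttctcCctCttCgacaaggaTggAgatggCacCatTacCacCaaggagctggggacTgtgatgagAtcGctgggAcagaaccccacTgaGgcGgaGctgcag
Over the whole coding sequence 82.6% of the bases are identical, and the longest run shared by the full transcripts is 17 bases. None of the main transcripts of the 9 genes shares exon bases with another annotated gene in GENCODE M21. Apart from 1.43% of the main Camk2a transcript, none matched a transcript of another gene in the table at 95% identity over 50 or more bases.

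To compare one gene with another, counts were divided by transcript length and scaled to the same total in every library (TPM). On this scale Calm2 was the highest of the 9, with a mean of 6542 TPM over the 7 libraries (5445 to 7650), and it ranked 12 of all genes with a level. Nrgn followed at 1988 TPM (1549.5 to 2406) and Calm3 at 926 TPM (779 to 1019), so that Calm2 stood 7.06-fold above Calm3. Below them came Camk2b at 511 TPM (310.1 to 667) and Camk2a at 273 TPM (244 to 295), which ranked 238 and 547. The inhibitors were at 96.7 TPM for Camk2n1 (69.8 to 144) and 24.9 TPM for Camk2n2 (18.3 to 44.8), a 3.88-fold gap. Camk2g, at 18.1 TPM (14.6 to 23.0), and Camk2d, at 17.3 TPM (11.1 to 29.3), were the lowest.

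The 6 upper genes did not overlap with their neighbours in this order across the libraries. Camk2n2, Camk2g and Camk2d did overlap, so their order is not separated beyond the spread. Camk2b exceeded Camk2a in each of the 7 libraries on this scale, and in forebrain Camk2a is usually described as the more abundant subunit. With the length of the longest transcript in place of each transcript's own length, Camk2a moved to 327 TPM and Camk2b to 591 TPM.

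**Figure D1:**
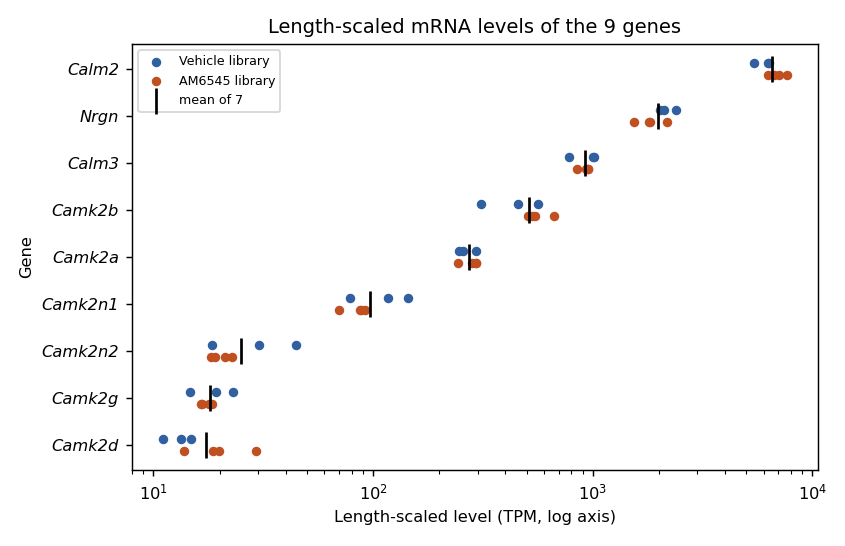
Length-scaled levels (TPM, logarithmic axis) of the 9 genes in 3 Vehicle libraries (blue) and 4 AM6545 libraries (orange), with the mean of 7 libraries as a black tick. Calm2 stands at a mean of 6542 TPM and Camk2d at 17.3 TPM, and the points of Camk2n2, Camk2g and Camk2d overlap.

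Between the groups, counts were tested with edgeR's quasi-likelihood test and adjusted over 14654 genes. Levels are given as TMM-scaled CPM, counts relative to a library's effective total, and fold changes are AM6545 over Vehicle. Library totals lay between 19174649 and 25894733 counts. Vehicle replicate B stood apart from the other libraries on the first principal component (36.1, with the others from -19.1 to 10.04) and had the highest share of mitochondrially encoded counts, 9.83% against 5.07% to 6.66%. Of the marker genes, 10 of 10 neuronal and synaptic and 8 of 8 hippocampal ones were detected. The fraction also held oligodendrocyte markers, whose summed level of 12935 to 19529 TPM exceeded that of the neuronal markers (6075.5 to 8129 TPM). Because these are bulk samples, fewer pieces of one cell type and less of an mRNA per piece cannot be told apart.

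None of the 9 genes passed an adjusted p of 0.05 by edgeR, where 0.00682% of all genes passed. At an unadjusted p under 0.05, 3 of 9 were lower in AM6545 (Camk2n1, Camk2n2 and Nrgn) and 0 were higher, where 8.7% and 5.86% of all genes were. DESeq2 and limma-voom also gave 0 of 9 after adjustment (1.92% and 2.69% of all genes), with 4 and 3 at an unadjusted p under 0.05 (11.4% and 23.9%), of which Camk2d alone, by DESeq2, was higher. The median log2 fold change of the 9 was -0.14, against 0.01 over all genes tested, and 6 of 9 values lay below 0, where 48.6% of all genes did. The groups overlapped for each of the 9 genes, where 13.8% of all genes did not overlap.

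**Figure D2:**
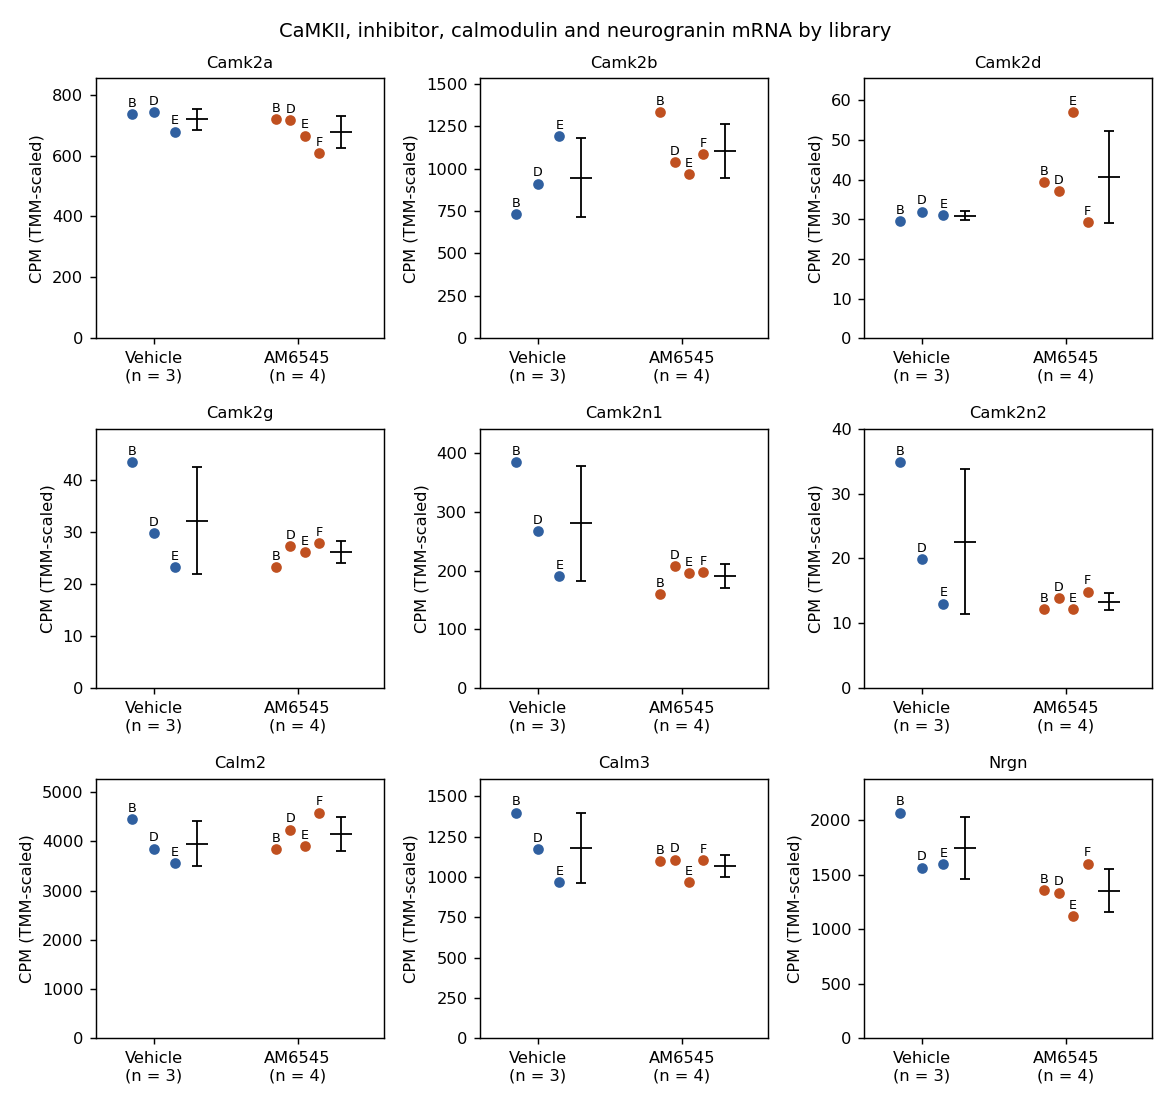
TMM-scaled CPM of each gene by library, with replicate letters, and the group mean and SD as a black bar (Vehicle n = 3, AM6545 n = 4). Vehicle replicate B is the highest library for Camk2n1 (384 CPM), Camk2n2 (34.8 CPM) and Nrgn (2067 CPM), and the lowest for Camk2b (733 CPM).

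Both inhibitor mRNAs were lower on average after AM6545. Camk2n1, the more abundant inhibitor, was at 384, 267 and 190 CPM in Vehicle replicates B, D and E (280 ± 97.6, SD, n = 3). In AM6545 replicates B, D, E and F it was at 161, 208, 196 and 198 CPM (190 ± 20.6, SD, n = 4). The AM6545 libraries lay close together, and Vehicle replicate E lay among them while the other two Vehicle libraries lay above. The log2 fold change was -0.56 (SE 0.19; edgeR adjusted p 0.261), with an approximate 95% interval of -0.99 to -0.13.

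Camk2n2 showed the same arrangement at a lower level. It was at 34.8, 19.96 and 13.0 CPM in Vehicle B, D and E (22.6 ± 11.1, SD, n = 3) and at 12.2, 13.9, 12.2 and 14.9 CPM in AM6545 B, D, E and F (13.3 ± 1.30, SD, n = 4). Again Vehicle E fell inside the AM6545 range and Vehicle B was the highest of the 7. The estimated log2 fold change was -0.77 (SE 0.27; edgeR adjusted p 0.261), with an interval of -1.36 to -0.17. For Camk2n1 and Camk2n2 the size of the difference rested on single Vehicle libraries. Without Vehicle B the log2 fold changes were -0.26 and -0.32 (edgeR adjusted p 0.814 and 0.787), and without Vehicle E they were -0.77 and -1.04 (adjusted p 0.0221 and 0.0226). Over all alternatives the adjusted p of both genes ran from 0.0221 or 0.0226 to 0.999. Leaving out Vehicle E brought 2 of the 9 genes past the threshold, where 6.38% of all genes passed, and leaving out Vehicle B left 0 of 9 at an unadjusted p under 0.05, where 6.46% of all genes were.

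Among the kinase subunits, Camk2a (chromosome 18, 60925618 to 60988152, plus strand) had the smallest difference. It was at 736, 742 and 679 CPM in Vehicle B, D and E (719 ± 34.8, SD, n = 3) and at 720.1, 717, 665 and 607 CPM in AM6545 B, D, E and F (677 ± 53.2, SD, n = 4). Its libraries spanned 0.29 on the log2 scale, the narrowest range of the 9 genes, and the groups overlapped. The log2 fold change was -0.09 (SE 0.10; edgeR adjusted p 0.704), with an approximate 95% interval of -0.30 to 0.13. Without AM6545 F it was -0.04.

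Camk2b (chromosome 11, 5969644 to 6066362, minus strand), the subunit that also ties the kinase to actin filaments, was at 733, 912 and 1194.5 CPM in Vehicle B, D and E (946 ± 233, SD, n = 3). In AM6545 B, D, E and F it was at 1333, 1038, 967 and 1086 CPM (1106 ± 159, SD, n = 4). Here Vehicle B was the lowest library and Vehicle E the second highest, so the 3 Vehicle libraries stood in the reverse of their order for the inhibitors. The log2 fold change was 0.22 (SE 0.16; edgeR adjusted p 0.524), 0.08 without Vehicle B and 0.43 without Vehicle E (edgeR adjusted p 0.961 and 0.0861), and 0.12 without AM6545 B.

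Camk2d and Camk2g, the subunits best known from tissues outside the brain, were measured at far lower levels. They lie on chromosome 3 (126596302 to 126846326, plus strand) and chromosome 14 (20734875 to 20794088, minus strand). Camk2d was at 29.6, 31.9 and 31.1 CPM in Vehicle B, D and E (30.9 ± 1.16, SD, n = 3) and at 39.4, 37.1, 57.0 and 29.2 CPM in AM6545 B, D, E and F (40.7 ± 11.7, SD, n = 4). AM6545 E stood well above the rest and AM6545 F below every Vehicle library. The log2 fold change was 0.40 (SE 0.18; edgeR adjusted p 0.352), and 0.19 without AM6545 E (adjusted p 0.516). Camk2g was at 43.4, 29.9 and 23.3 CPM in Vehicle (32.2 ± 10.2, SD, n = 3) and between 23.2 and 27.9 CPM in AM6545 (26.2 ± 2.08, SD, n = 4). Its log2 fold change of -0.30 (SE 0.17; edgeR adjusted p 0.434) was -0.03 without Vehicle B and -0.49 without Vehicle E (edgeR adjusted p 0.987 and 0.0544).

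Calm2 and Calm3, which supply the calcium sensor, did not pass the test. Calm2 was at 4454, 3853 and 3567 CPM in Vehicle B, D and E (3958 ± 452, SD, n = 3) and at 3837, 4239, 3909 and 4587 CPM in AM6545 B, D, E and F (4143 ± 344, SD, n = 4). The libraries of both groups were interleaved, with a log2 fold change of 0.07 (SE 0.12; edgeR adjusted p 0.816; interval -0.20 to 0.33) that was 0.16 without Vehicle B and -0.0036 without Vehicle E. Calm3 was at 1400, 1172 and 968 CPM in Vehicle (1180.0 ± 216, SD, n = 3), and at 1099.8, 1109, 968 and 1106 CPM in AM6545 (1071 ± 68.5, SD, n = 4). The estimate for Calm3 was -0.14 on the log2 scale (SE 0.13; edgeR adjusted p 0.614), 0.00 without Vehicle B and -0.26 without Vehicle E.

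Nrgn lies on chromosome 9 (37544492 to 37552904, minus strand). It was at 2067, 1564 and 1598.7 CPM in Vehicle B, D and E (1743 ± 281, SD, n = 3). In AM6545 B, D, E and F it was at 1354, 1334, 1117 and 1599.7 CPM (1351 ± 197.5, SD, n = 4). AM6545 F lay among the Vehicle libraries and the other three AM6545 libraries lay below all of them. The log2 fold change was -0.37 (SE 0.14; edgeR adjusted p 0.276), with an interval of -0.67 to -0.06. Without Vehicle B it was -0.22 (adjusted p 0.819).

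The GC content of transcripts moved with the groups in these libraries. For each library, log2 levels were taken as deviations from each gene's mean over the 7 libraries. The slope of these deviations on GC content was -0.11 to -0.03 per 10 percentage points in AM6545 and 0.04 to 0.13 in Vehicle. Slopes of both signs follow from this centring, so they compare the libraries only with each other. Genes in the lowest GC decile had a median log2 fold change of 0.15, and those in the highest decile -0.17. Camk2n2 (63.9% GC) and Nrgn (58.6%) fell in the highest decile, Calm2 (42.7%) and Camk2d (46.1%) in deciles 2 and 3, and Camk2n1 (53.7%) and Camk2a (53.3%) in decile 7. With every library's dependence on GC and transcript length removed, Camk2n1 was at -0.59 on the log2 scale (edgeR adjusted p 0.721). With the same correction Camk2n2 was at -0.41, Nrgn at -0.19, Calm3 at -0.06 and Camk2d at 0.24. One of the 9 genes, Camk2n1, then had an unadjusted p under 0.05, where 6.76% of all genes did.

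**Figure D3:**
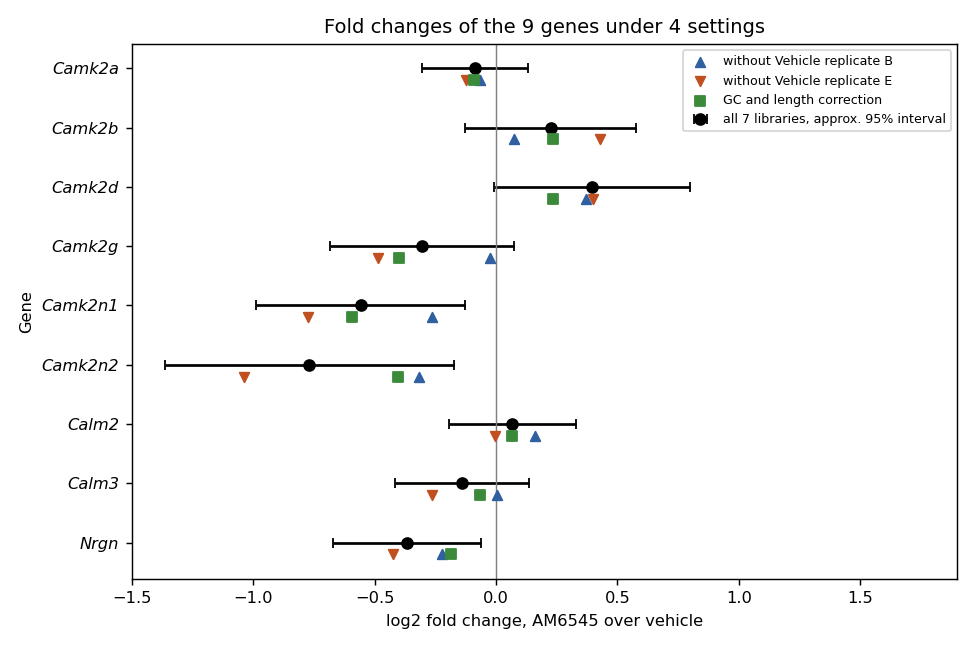
Log2 fold change (AM6545 over Vehicle) of each gene with all 7 libraries and its approximate 95% interval (black), without Vehicle replicate B (blue), without Vehicle replicate E (orange) and with the GC and length correction (green). For Camk2n1 the 4 values run from -0.77 to -0.26, and for Camk2n2 from -1.04 to -0.32.

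Ratios of TPM within a library do not depend on how libraries are scaled to each other, and they are given as a description. The sum of the 4 kinase genes is a level and does depend on that scaling. The 4 kinase genes together were at 591, 784 and 849 TPM in Vehicle B, D and E, and at 996, 863, 833 and 821 TPM in AM6545 B, D, E and F. Camk2b made up 52.5%, 58.2% and 66.6% of that sum in Vehicle, and 66.9%, 61.3%, 60.7% and 66.4% in AM6545. Camk2a made up 41.8%, 37.5% and 30.2% in Vehicle and 29.5% to 34.2% in AM6545. In both measures Vehicle E sat within the AM6545 range and Vehicle B farthest from it.

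The log2 ratio of Camk2b to Camk2a was 0.70 ± 0.41 (SD, n = 3) in Vehicle and 1.01 ± 0.19 (SD, n = 4) in AM6545, with overlap. That of the 2 inhibitors to the 4 kinase genes was -1.65, -2.41 and -3.13 in Vehicle B, D and E, and -3.50, -2.93, -2.96 and -2.89 in AM6545. The difference of -0.67 between the group means was -0.30 without Vehicle B and -1.04 without Vehicle E. The log2 ratio of Camk2n2 to Camk2n1 lay between -2.21 and -1.68 in the 7 libraries.

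Of the 13 shares, sums and ratios computed, 1 did not overlap between the groups, where the levels of 13.8% of all genes did not. It was the ratio of neurogranin to calmodulin mRNA, lower in each AM6545 library than in each Vehicle library. The log2 ratio of Nrgn to the sum of Calm2 and Calm3 was -1.60, -1.79 and -1.61 in Vehicle B, D and E (-1.67 ± 0.11, SD, n = 3). It was -1.99, -2.15, -2.28 and -1.98 in AM6545 B, D, E and F (-2.10 ± 0.14, SD, n = 4). The difference of -0.43 was -0.40 without Vehicle B and -0.40 without Vehicle E. Nrgn lies in the highest GC decile, Calm3 in decile 9 and Calm2 in decile 2, and the part of that trend in the ratio was not tested. The log2 ratio of Calm3 to Calm2 was -2.70 ± 0.09 (SD, n = 3) and -2.91 ± 0.11 (SD, n = 4), with AM6545 B inside the Vehicle range.

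**Figure D4:**
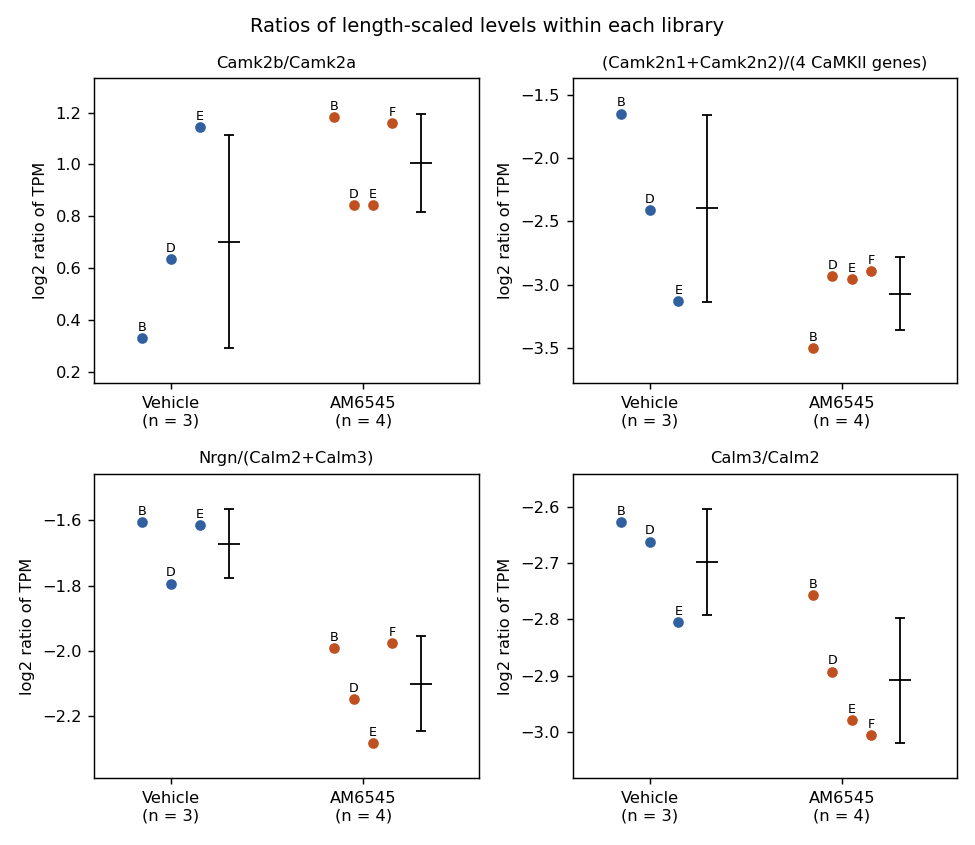
Log2 ratios of TPM within each library for 4 pairs of genes or gene sums, with replicate letters and the group mean and SD (Vehicle n = 3, AM6545 n = 4). The AM6545 libraries lie between -2.28 and -1.98 for Nrgn over Calm2 plus Calm3, all below the Vehicle libraries, while the groups overlap in the other panels.

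At transcript level, 33 of the 79 entries passed the low-count filter. Of these, 0 passed an adjusted p of 0.05 by edgeR (0.0177% of all transcripts) and 6 had an unadjusted p under 0.05 (8.39% of all transcripts). The 6 were Camk2d-206, Camk2d-228, Camk2d-202, Camk2n1-201, Camk2n2-201 and Nrgn-201, and both Camk2d-228 and Camk2d-202 were listed at 0 in all 3 Vehicle libraries and in 1 AM6545 library. DESeq2 gave 0 after adjustment and 7 at an unadjusted p under 0.05 among the 66 it tested (1.02% and 5.62% of all transcripts). The groups did not overlap for 1 of the 33, Camk2d-206, where 10.8% of all transcripts did not overlap. Camk2d-206 (ENSMUST00000106402.8) was at 489, 367 and 376 unscaled counts in Vehicle B, D and E. In AM6545 B, D, E and F it was at 624, 599.8, 707 and 538 unscaled counts. Its log2 fold change was 0.51 (SE 0.20; edgeR adjusted p 0.569). Overlap was judged on scaled CPM. Effective totals in the gene table, relative to the geometric mean of the libraries, were 0.79 in Vehicle E and 1.11 in AM6545 F. Scaling therefore brings these libraries closer together than their counts are.

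Over the 7 libraries together, a single transcript held at least 95.2% of the counts of each of Camk2a, Camk2b, Calm2, Calm3 and Nrgn. In single libraries the share went down to 90.7% for Camk2a-203 and 93.3% for Calm2-201, both in AM6545 E. The main transcripts Camk2a-203, Camk2b-209, Calm2-201, Calm3-201 and Nrgn-201 had log2 fold changes of -0.16, 0.22, 0.04, -0.14 and -0.36 (edgeR adjusted p 0.591 to 0.948). Camk2n1-201 and Camk2n2-201 had -0.55 and -0.76 (edgeR adjusted p 0.593 and 0.582). The second Camk2a transcript, Camk2a-201, was below the share set for naming and was chosen after its values were seen. It took 9.07%, 7.21%, 9.30% and 2.38% of Camk2a counts in AM6545 B, D, E and F, and 0.224%, 1.55% and 3.48% in Vehicle B, D and E. AM6545 F lay between Vehicle D and Vehicle E, and the other three AM6545 libraries lay above all Vehicle libraries.

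Camk2d and Camk2g spread their counts over several transcripts. Camk2d-226 took 26.7%, 41.3% and 25.7% of Camk2d counts in Vehicle B, D and E and 21.4%, 25.0%, 25.1% and 18.1% in AM6545 B, D, E and F. The groups did not overlap, by a margin of 25.7% against 25.1%, and over all transcripts 8.61% of such shares did not overlap. It was the only share without overlap among the 33 transcripts of the 9 genes that passed the filter. These 33 include the single transcripts of Camk2n1 and Camk2n2, whose share is always 100%. Camk2g-203 took 81.6%, 37.8% and 75.3% of Camk2g counts in Vehicle and 62.8%, 42.7%, 33.5% and 52.3% in AM6545. Camk2g-201 took 5.04% to 49.4% in Vehicle and 23.0% to 46.6% in AM6545, with Vehicle D the highest library of all and the other two Vehicle libraries the lowest. Camk2g-202 took 7.18% ± 1.53 (SD, n = 3) and 10.2% ± 9.77 (SD, n = 4). These shares depend on how reads were divided among similar transcripts. By edgeR's test of transcript usage, 7 of the 9 genes could be tested and 0 passed an adjusted p of 0.05 (0.713% of all genes tested). Camk2d and Camk2a had an unadjusted p under 0.05 (3.92% of all genes), with adjusted p-values of 0.303 and 0.644. Camk2d passed in 1 of 10 alternatives, without AM6545 F (edgeR adjusted p 0.0394). Without AM6545 B, without AM6545 E and with a mean of at least 50 counts, its unadjusted p was 0.41, 0.364 and 0.533.

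**Figure D5:**
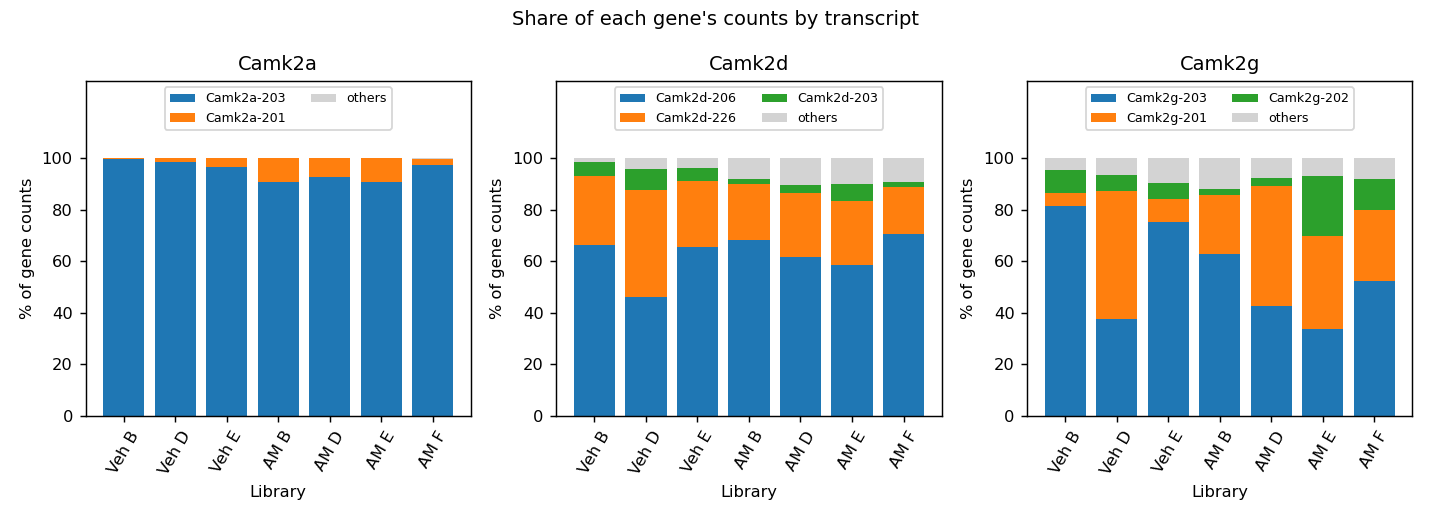
Percent of the counts of Camk2a, Camk2d and Camk2g held by each transcript with at least 4% of the gene, in 3 Vehicle (Veh) and 4 AM6545 (AM) libraries. Camk2a-201 reaches 9.30% in AM6545 E, and Camk2g-203 ranges from 33.5% to 81.6% across libraries.

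Other genes of the pathway were taken from 3 lists. Of 23 calmodulin-dependent kinases and protein phosphatases tested, 0 passed an adjusted p of 0.05 by edgeR, DESeq2 or limma-voom. At an unadjusted p under 0.05 edgeR gave 2 higher and 0 lower, where 5.86% and 8.7% of all genes were, and the median log2 fold change was 0.14. DESeq2 gave 2 higher and limma-voom 5 higher, each with 0 lower (11.4% and 23.9% of all genes in either direction). Without Vehicle E edgeR gave 7 higher and 2 lower, where 25.7% of all genes passed in either direction. The 2 were Ppp3cc, a catalytic subunit of the calmodulin-activated phosphatase calcineurin (0.34, SE 0.10; 21.5 to 25.4 CPM in AM6545 and 17.5 to 19.0 in Vehicle), and Ppp1cb, a catalytic subunit of protein phosphatase 1 (0.27, SE 0.09). Their edgeR adjusted p-values were 0.231 and 0.251. Ppm1f, a phosphatase that acts on CaMKII, was at 0.20 (SE 0.10), and for these 3 genes the groups did not overlap, where 6.63% of all genes were higher and 7.19% lower without overlap. The lowest p-values among lower genes belonged to Mylk (-0.30), Phkg1 (-0.18) and Ppp3cb (-0.15), each with overlap. The GC and length correction moved Ppp1cb to 0.16, Mylk to -0.16 and Ppp3cb to -0.37.

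Of 34 genes for calmodulin-binding and calmodulin-regulating proteins tested out of 36, 0 passed by edgeR after adjustment, with 2 higher and 3 lower at an unadjusted p under 0.05, where 5.86% and 8.7% of all genes were (median log2 fold change -0.03). After adjustment DESeq2 gave 1 (Adcy1) and limma-voom 2 (Adcy1 and Pcp4), lower in each case, where 1.92% and 2.69% of all genes passed. Adcy1, a calmodulin-stimulated adenylyl cyclase, had the smallest p. It was at 376, 380.3 and 307 CPM in Vehicle B, D and E and at 228, 274, 265 and 282 CPM in AM6545 B, D, E and F. The groups did not overlap, and the log2 fold change was -0.43 (SE 0.11; edgeR adjusted p 0.199, DESeq2 0.0309, limma-voom 0.0305). Pcp4, a small calmodulin-binding protein with an IQ motif like that of neurogranin, was at -0.35 (SE 0.11; edgeR adjusted p 0.245) and Iqsec2 at -0.43 (SE 0.16; edgeR adjusted p 0.272). On the higher side were the calmodulin-dependent phosphodiesterase Pde1a (0.23), the transcription activator Camta1 (0.21) and the calcineurin regulator Rcan2 (0.28), with edgeR adjusted p-values of 0.296 to 0.361. The GC and length correction moved Adcy1 to -0.22, Pcp4 to -0.10, Iqsec2 to -0.26, Pde1a to 0.03, Camta1 to 0.10 and Rcan2 to 0.13. Without Vehicle E, Adcy1 (-0.53), Pcp4 (-0.46) and Iqsec2 (-0.62) passed by edgeR (adjusted p 0.0239 to 0.0276), where 6.38% of all genes did. Without Vehicle B they were at -0.39, -0.25 and -0.23 and did not pass, where 0 of 14763 genes passed. Their unadjusted edgeR p-values were then 0.0077, 0.0498 and 0.149, where 6.46% of all genes were under 0.05.

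Of 30 partners and substrates of CaMKII at the synapse, 0 passed by edgeR after adjustment, with 3 higher and 5 lower at an unadjusted p under 0.05, where 5.86% and 8.7% of all genes were (median log2 fold change -0.01). After adjustment DESeq2 gave 1 (Shank3) and limma-voom 2 (Shank3 and Cacng2), all lower, where 1.92% and 2.69% of all genes passed. Grin2b, the NMDA receptor subunit that docks CaMKII, was at 268, 217 and 183 CPM in Vehicle B, D and E and at 157, 178, 161 and 203 CPM in AM6545 B, D, E and F. Its log2 fold change was -0.35 (SE 0.13; edgeR adjusted p 0.282). Shank3, a postsynaptic scaffold, was at -0.82 (SE 0.22) and Cacng2, the AMPA receptor partner stargazin, at -0.56 (SE 0.15), each without overlap and with an edgeR adjusted p of 0.205. The Shank3 value belongs to the gene table. Transcripts found in GENCODE M21 held 17.2% to 41.9% of its gene count per library, and summed by themselves they gave -0.11 (edgeR adjusted p 0.781). For Cacng2 and the other genes examined for this, the 9 included, these transcripts held the whole gene count in every library. Dlg4 and Nsf, named below, were not examined for it. In both genes Vehicle B was the highest library, at 39.8 and 50.6 CPM. Cpeb1, a translation regulator phosphorylated by CaMKII, was at 0.36 (SE 0.11), the calcium channel subunit Cacnb2 at 0.30 (SE 0.11) and the actin cross-linker Actn2 at 0.40 (SE 0.17). Their edgeR adjusted p-values were 0.231 to 0.315, and without AM6545 B Actn2 was at 0.23. The GC and length correction moved Shank3 to -0.52, Cpeb1 to 0.23 and Cacnb2 to 0.14. Without Vehicle E, 5 partners passed by edgeR as lower and 1 as higher, where 6.38% of all genes passed. The lower ones included Shank3 (-1.05), Dlg4 (-0.75), Cacng2 (-0.72) and Grin2b (-0.47), and the higher one was Nsf (0.72). Dlg4 and Nsf are named here because of this count, after their values were seen. Without Vehicle B, Shank3, Cacng2 and Grin2b were at -0.48, -0.33 and -0.19 and did not pass, where 0 of 14763 genes passed. Their unadjusted edgeR p-values were then 0.0128, 0.0187 and 0.141, where 6.46% of all genes were under 0.05.

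Camk2n2 had the widest range over libraries of the 9 genes, 1.47 on the log2 scale. By the root mean square difference of centred log2 CPM over the 7 libraries, the genes with the nearest pattern were Cacna1i (0.05), Cbarp (0.06), Ptms (0.07), Nlgn2 (0.07) and Acvr1b (0.08). Each was highest in Vehicle B, for example Cbarp at 125 CPM against 43.5 to 75.6 CPM in the other libraries. Their log2 fold changes lay between -0.84 and -0.67. These genes were picked for this likeness, so their fold changes and their peak in Vehicle B follow from the choice and are given as a description.

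Markers of other cell types were set beside these values. By edgeR 0 of the marker genes passed after adjustment, and Syn1 and Grin1 stand both in the neuronal marker list and in the list of CaMKII partners. At an unadjusted p under 0.05, 2 of 8 hippocampal and 1 of 7 astrocyte markers were lower, and 0 markers of any list were higher. Microglia markers had 4 of 8 lower by the same rule, where 8.7% of all genes were, and 4 of 8 lower without overlap, where 7.19% of all genes were. Their summed level was 1152 to 1240.5 TPM in AM6545 and 1233 to 1477.5 TPM in Vehicle. All 7 choroid plexus markers had a log2 fold change below 0, where 48.6% of all genes did. Of the 7, 0 had an unadjusted p under 0.05 by edgeR and 0 were without overlap. Their sums, 665 to 3256 TPM in AM6545 and 2389 to 4535 TPM in Vehicle, overlapped. The summed neuronal and synaptic markers were at 7759 to 8129 TPM in AM6545 and 6075.5 to 7165 TPM in Vehicle, without overlap. Taken singly, 1 of the 10 was higher without overlap, where 6.63% of all genes were, and 0 had an unadjusted p under 0.05 by edgeR. Of their log2 fold changes 7 lay above 0 and 3 below. No marker was at 0 in all libraries, and the part of these markers in the differences of the 9 genes was not tested.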

How the data were processed

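Estimated counts per gene and per transcript were deposited by the authors, with 1 column per library and no scaling to a common total. Salmon 1.5.2 and mm10 are named, without a role, per the submitters' processing notes; the annotation release and strand setting are not given in the sources used here. Names, lengths, GC content and sequences were taken from GENCODE M21 (GRCm38), in which 22148 of 22248 gene and 101527 of 102392 transcript identifiers were found; 22135 gene identifiers carried a higher version, so the models behind the counts may not be the same.

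Counts were rounded and tested in R 4.3.3 with edgeR 4.0.16 and limma 3.58.1 (quasi-likelihood, TMM, filterByExpr, robust fit, no covariates, Benjamini-Hochberg over all features). Standard errors were approximated from the F statistic, as |log2 fold change| over its square root. TPM used GENCODE lengths, not effective lengths. Transcript usage was tested with diffSpliceDGE. Alternatives were other scalings and low-count filters, DESeq2 1.42.0, limma-voom, the replicate letter as a block, a GC and length correction, and leaving out each library, which for the ratios was added after seeing the data. The GC and length correction used lowess with a span of 0.3. The code was tested on simulated data. The members and gene lists were chosen with earlier results of these data known. Named besides the 9 genes were transcripts with at least 5% of a gene's counts, up to 3 genes per direction of each list by p, and the 5 genes nearest in pattern to the most variable of the 9 genes. One gene that entered the counts is not reported here by name.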

Additional observations from a re-analysis of the deposited data

Results flagged for a closer look

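Of 64 values examined within the AM6545 group, 3 had 1 library far from the remaining libraries, and chance would give about 3.2. Groups of 3, as Vehicle is, were not examined. For Calm3 that library was replicate E, at 968 CPM, with the rest of the group at 1099.8 to 1109 CPM. Replicate B had the lowest log2 ratio of Camk2n1 to Camk2b, -3.26, with the rest at -2.64 to -2.52. In the same library the log2 ratio of the 2 inhibitors to the 4 kinase genes was -3.50, with the rest at -2.96 to -2.89. These 2 ratios share Camk2n1 and Camk2b, and replicate B had the lowest Camk2n1 (161 CPM) and the highest Camk2b (1333 CPM) of its group.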

How the results depend on the processing

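With all 7 libraries, each of the 9 genes kept the sign of its log2 fold change under every alternative scaling, filter, tool, block and correction run. Over all genes, the 1 call of edgeR became 222 with DESeq2, 394 with limma-voom, 2 with a mean of at least 50 counts, 2 without robust estimation and 0 with the GC and length correction, and 0 to 944 with 1 library left out (944 without Vehicle E). Of the 9 genes, 0 passed after adjustment, and 0 to 2 with 1 library left out (2 without Vehicle E, where 6.38% of all genes passed). At an unadjusted p under 0.05 the 3 became 1 with the GC and length correction, where 6.76% of all genes were under 0.05. They became 0 with that correction and the replicate block, where 451 of 14654 genes were. With 1 library left out they became 0 to 6. The 0 was without Vehicle B (6.46% of all genes) and the 6 without Vehicle E (25.7% of all genes). The 6 transcript calls over all transcripts became 384 with DESeq2, 10 with a mean of at least 50 counts and 1 to 14 with 1 library left out. The 62 genes with changed transcript usage became 22 with a mean of at least 50 counts and 69 to 162 with 1 library left out. The cause of these shifts was not tested.

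Leaving out 1 library gave log2 fold changes of -0.26 to 0.0022 for Calm3, -0.0036 to 0.16 for Calm2, -0.31 to 0.0054 for Ppp3cb and -0.30 to 0.013 for Phkg1, which was at 0.094 with limma-voom. The same ranges were -0.34 to 0.24 for Camk2d-226, -0.60 to 0.70 for Camk2g-202, -0.0299 to 0.11 for Calm2-201 and -0.28 to 0.0090 for Calm3-201. What the replicate letters mark is not given. AM6545 and Vehicle libraries of the same letter correlated at -0.31, -0.14 and -0.24 in their deviations from the group means, and 0 of 3 correlated best with their own letter. With groups of 4 and 3 libraries centred on their own means, these correlations cannot decide whether libraries of the same letter belong together. With the letter as a replicate block, edgeR called 1 gene, 0 transcripts and 72 genes for transcript usage. In that fit 4 of the 9 genes had an unadjusted p under 0.05, where 1199 of all 14654 genes did. The block reversed Camk2d-226 (0.14), Camk2g-202 (-0.75) and Calm2-201 (-0.0143).

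The counts behind Camk2n2, 241 to 864 per library, were the lowest of the 9 genes in every library except Vehicle B. There Camk2d was lower, at 736 counts. Transcript shares of Camk2d and Camk2g rest on 574 to 1212 and 431 to 1078 counts of the gene per library.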
